A study of Homo sapiens with 24 samples.

Results

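HCC1395 is an established triple-negative breast cancer cell line, a class of tumour that lacks hormone receptors and HER2 amplification. The 6 libraries described here are its 3 libraries given 5 uM tazemetostat and its 3 DMSO controls, chosen by their labels, out of 24 libraries in the series. Tazemetostat is a small-molecule inhibitor of EZH2, and the group is called EZH2i in the labels. Another 6 HCC1395 libraries are used for comparison. Of these, 3 had ipatasertib at 5 uM, which inhibits AKT kinases, and 3 had both agents. The remaining 12 libraries come from the lines HCC38 and HCC1937. All libraries are of polyadenylated RNA. The labels state doses for these lines but a schedule only for another line and another assay, so how long HCC1395 was treated is not known here.

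EZH2 is the catalytic subunit of Polycomb repressive complex PRC2, which methylates lysine 27 of histone H3. The mark is deposited over many promoters of developmental genes and goes with low transcription there. A second complex, PRC1, contains subunits that bind the mark. Tazemetostat blocks the methyltransferase activity without removing the EZH2 protein, and existing methylation is lost as cells divide.

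Overlapping genes were counted without a stated strand, so reads of the 46 named genes that overlap another tested gene, such as MGP, THBS1, TP73, KRT8 and KRT18, could partly belong to that neighbour. Totals ran from 34184316 to 47217503 counts in the 6 libraries, and 18074 genes passed a filter on low counts applied to all 12 HCC1395 libraries. Markers of the line were only partly those of a triple-negative carcinoma line. VIM had a mean of 1505 CPM, counts scaled to a common library size, in DMSO, EGFR 194.7 and KRT8 32.0. The hormone receptor genes ESR1 and PGR did not pass the filter. Against this, the epithelial marker CDH1 had only 0.342 CPM, and EPCAM, whose values are given below, was also low. Mitochondrial genes took 3.77 to 3.92% of counts in DMSO and 4.49 to 5.19% under tazemetostat. DMSO replicate C was low for genes with long transcripts. Among genes with more than 8 kb of exons, 9.12% were at least 0.2 (log2) under the mean of replicates A and B, against 1.69 to 2.23% in the shorter classes. The labels do not say whether replicates A, B and C were separate cultures. The p-values therefore describe the spread among these libraries, and that spread may be technical.

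The promoters of 4 genes that the results below turn on are shown first: 3 that rose from near silence and the chemokine gene CXCL8, which fell. Each is the RefSeq window on GRCh38.p14 from 250 bases before to 50 bases after the gene's start, on the + strand, and lies at chr1:3652266-3652565 for TP73, chr3:181711675-181711974 for SOX2, chrX:108439588-108439887 for COL4A5 and chr4:73740319-73740618 for CXCL8. Capitals mark CG in the first 3 and GGAATTTCC, a sequence bound by NF-kB, in CXCL8.
TP73: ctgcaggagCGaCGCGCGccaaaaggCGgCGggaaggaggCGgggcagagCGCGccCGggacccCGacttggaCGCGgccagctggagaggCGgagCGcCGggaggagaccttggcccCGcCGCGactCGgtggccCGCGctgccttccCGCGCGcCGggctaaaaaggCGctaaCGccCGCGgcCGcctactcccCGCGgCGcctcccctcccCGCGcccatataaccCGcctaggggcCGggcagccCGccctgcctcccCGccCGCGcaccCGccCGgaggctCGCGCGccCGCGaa
SOX2: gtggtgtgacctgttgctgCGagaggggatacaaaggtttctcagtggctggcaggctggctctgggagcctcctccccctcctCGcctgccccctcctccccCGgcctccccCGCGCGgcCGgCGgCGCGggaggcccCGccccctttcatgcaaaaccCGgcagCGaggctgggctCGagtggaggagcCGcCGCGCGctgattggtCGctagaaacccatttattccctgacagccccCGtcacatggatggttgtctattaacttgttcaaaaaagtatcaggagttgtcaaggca
COL4A5: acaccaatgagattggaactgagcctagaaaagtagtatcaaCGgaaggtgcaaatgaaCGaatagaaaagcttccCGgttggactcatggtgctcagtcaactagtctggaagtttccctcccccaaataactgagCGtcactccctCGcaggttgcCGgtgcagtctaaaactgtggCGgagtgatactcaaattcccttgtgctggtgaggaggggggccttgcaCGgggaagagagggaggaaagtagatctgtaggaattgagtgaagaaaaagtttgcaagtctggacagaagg
CXCL8: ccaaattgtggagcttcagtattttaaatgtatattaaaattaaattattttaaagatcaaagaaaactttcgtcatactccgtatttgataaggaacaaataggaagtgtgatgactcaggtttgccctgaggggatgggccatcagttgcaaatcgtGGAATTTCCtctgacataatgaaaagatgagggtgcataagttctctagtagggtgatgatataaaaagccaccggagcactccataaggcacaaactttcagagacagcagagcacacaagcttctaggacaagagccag
The TP73 window held 49 CG, more than 98.4% of the 27305 promoters in the table. SOX2 had 20 CG and COL4A5 had 8, where the median of all promoters was 14. The genes shown that rose thus had promoters both dense and poor in CG. GGAATTTCC or its reverse complement GGAAATTCC occurred in 129 promoters (0.472%), among them that of CXCL8, which held it at 1 place. These matches describe letters only. Whether promoters of the genes that changed differ from others in CG was not tested, since 72.4% of the protein-coding genes that rose at least 2-fold had an entry in the table.

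Changes of 2-fold or more under tazemetostat were nearly all rises. At an adjusted p under 0.05 (edgeR's quasi-likelihood test, Benjamini-Hochberg adjustment over all genes tested), 3402 genes were higher (18.8%) and 2685 lower (14.9%). Rises of at least 2-fold numbered 1337 (7.4%) and falls of that size 67 (0.371%). The 3 libraries of each group did not overlap for 8741 genes (48.4%). The count of smaller changes depended on scaling: with RLE scaling 3095 genes were higher and 3511 lower, whereas rises and falls of at least 2-fold numbered 1274 and 85.

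A filter on low counts can favour rises, because a gene silent in DMSO can pass through the treated libraries. The genes were therefore also counted where they passed in the 3 ipatasertib libraries, which take no part in the comparison. Of those 15837 genes, 2815 were higher (17.8%) and 2669 lower (16.9%), with 758 rises (4.79%) and 51 falls (0.322%) of at least 2-fold. The excess of large rises was present in this set as well.

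Direction went with expression level. Taking each gene's level from the ipatasertib libraries, 27.2% of the 2501 genes at 1 to 4 CPM were higher under tazemetostat and 3.88% lower. Of the 3393 genes over 64 CPM, 9.22% were higher and 37.1% lower. Among called genes the share that rose was 91.6% (95% Wilson interval 89.0 to 93.6%) at 0.25 to 1 CPM and 19.9% (18.0 to 21.9%) over 64 CPM. These intervals take genes as independent, which they are not. They also leave out the spread among libraries and the choice of scaling, so they understate the uncertainty. Low classes also held genes that passed the filter only with libraries of other groups, which favours rises there. In the top class only 5 genes rose at least 2-fold and 1 fell so far. Long non-coding RNA genes were higher in 12.2% of 2719 cases and lower in 3.02%, and protein-coding genes in 21.3% and 18.2% of 13996. The mitochondrial genome, whose share of counts is given above, had 10 of its 13 tested protein genes higher and none lower.

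**Figure D1:**
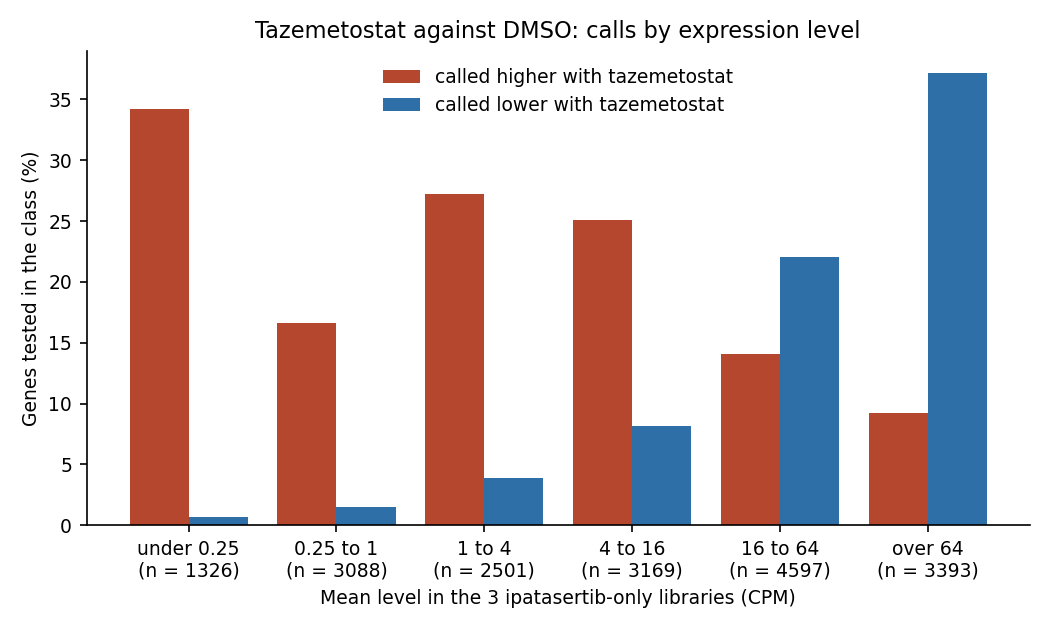
Share of genes called higher (red) or lower (blue) under tazemetostat against DMSO, in % of the genes tested in each class of mean level (CPM) in the 3 ipatasertib-only libraries. From 1 CPM upward the red bars fall from 27.2% to 9.22% while the blue bars climb from 3.88% to 37.1%. All genes in the lowest class, and some above it, passed the filter only with libraries of other groups.

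Some genes had no read in DMSO. Files listed 10 entries at 0 counts in all 3 DMSO libraries with at least 10 counts in each tazemetostat library, and no entry the other way round. BCHE, which encodes butyrylcholinesterase, had 65, 88 and 73 counts under tazemetostat and was at least 67.2-fold higher, taking 3 counts over the DMSO group as the floor. CTTNBP2, a gene of the neuronal cytoskeleton, had 23, 56 and 48 counts, and the cardiac and endodermal factor gene GATA4 had 10, 17 and 11. FBXL7, a ubiquitin ligase subunit gene, had 2, 3 and 1 counts in DMSO and 126, 174 and 138 under tazemetostat. These genes were chosen for their zeros, so the values are a description.

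Of the genes of the Polycomb complexes, EZH2 itself did not pass the test. It had 137, 132 and 129 CPM in DMSO and 124, 125 and 127 under tazemetostat. The groups did not overlap, but the log2 change of -0.08 ± 0.05 (SE, as for all log2 changes below) did not pass the test (adjusted p = 0.202). Its Wald test in DESeq2 did, at -0.12 with adjusted p = 0.0403. Of 13 PRC2 subunit genes 1 rose and 2 fell, against 33.7% of all genes called in either direction. Those that fell were SUZ12, a core scaffold subunit, by 0.19 on the log2 scale, and the histone-binding RBBP7 by 0.13. EPOP, an accessory subunit gene, rose by 0.27 (adjusted p = 0.0275). All 3 calls were lost in several of the fits that left out a library, at adjusted p up to 0.188 for EPOP, 0.103 for SUZ12 and 0.157 for RBBP7. EED, which binds the methylated lysine, had a log2 difference of 0.15 (adjusted p = 0.0961) and EZH1, the other methyltransferase of the complex, -0.01 (adjusted p = 0.965).

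Of 21 PRC1 subunit genes 5 rose and 2 fell, a share near that of all genes. BMI1, which supports the ubiquitin ligase activity of PRC1, had 25.2, 21.5 and 21.2 CPM in DMSO and 55.1, 55.5 and 57.1 under tazemetostat. Every treated library was above every control, with a log2 change of 1.30 ± 0.07 (adjusted p = 7.5e-12). RNF2, the ligase itself, rose by 0.86 ± 0.07 and PCGF5, a variant PRC1 subunit, by 0.83 ± 0.07. PHC2, which polymerises PRC1, fell by 0.32 ± 0.05. Among H3K27 demethylase and SWI/SNF genes, 1 of 23 rose and 5 fell, or 2 without tazemetostat replicate B. The muscle and neural SWI/SNF subunit SMARCD3 rose by 0.62 ± 0.07, and the core subunit SMARCC1 fell by 0.31 ± 0.06. The demethylase KDM6A fell by 0.26 ± 0.10 (adjusted p = 0.044), a call lost in 4 of 6 fits without a library, at adjusted p up to 0.182. Of 11 DNA methylation genes 1 fell, the maintenance methyltransferase DNMT1, by 0.15 on the log2 scale. That call was lost in 4 of 6 fits without a library, at adjusted p up to 0.103.

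The largest rises above a mean of 2 CPM were of genes close to silence in DMSO. PCDH7, a solitary protocadherin, had 0.132, 0.421 and 0.0823 CPM in DMSO and 7.99, 7.93 and 7.13 under tazemetostat, a log2 change of 5.18 ± 0.32. COL4A5, a basement membrane collagen chain whose promoter is shown above, had 0.132, 0.281 and 0.0823 CPM and then 4.76, 4.30 and 5.46 (4.86 ± 0.26). In each gene every treated library was far above every control. SOX2, a stem cell factor, had 0.0792, 0.225 and 0.686 CPM and then 9.09, 9.74 and 9.05 (4.81 ± 0.31). The groups did not overlap, and SOX2-OT lies over it on the same strand, so reads may be shared. TP73, a p53 family gene, rose from 0.317, 0.477 and 0.439 CPM to 4.71, 4.05 and 5.04 (3.48 ± 0.21). CCND2, which encodes cyclin D2, had 0.502, 0.898 and 0.795 CPM and then 18.0, 18.9 and 18.8. IGF2BP1 (4.62 ± 0.19), the orphan nuclear receptor gene RORB (3.81 ± 0.18), the activin antagonist FST (3.72 ± 0.15) and the ubiquitin ligase gene PELI2 (3.50 ± 0.24) followed. GABRQ, a GABA receptor subunit, rose from 2.11, 1.74 and 1.86 CPM to 21.1, 22.5 and 19.9 (3.47 ± 0.13). The heparan sulphate proteoglycan gene GPC3 rose by 3.41 ± 0.17 and the sodium-calcium exchanger gene SLC8A2 by 3.37 ± 0.24.

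**Figure D2:**
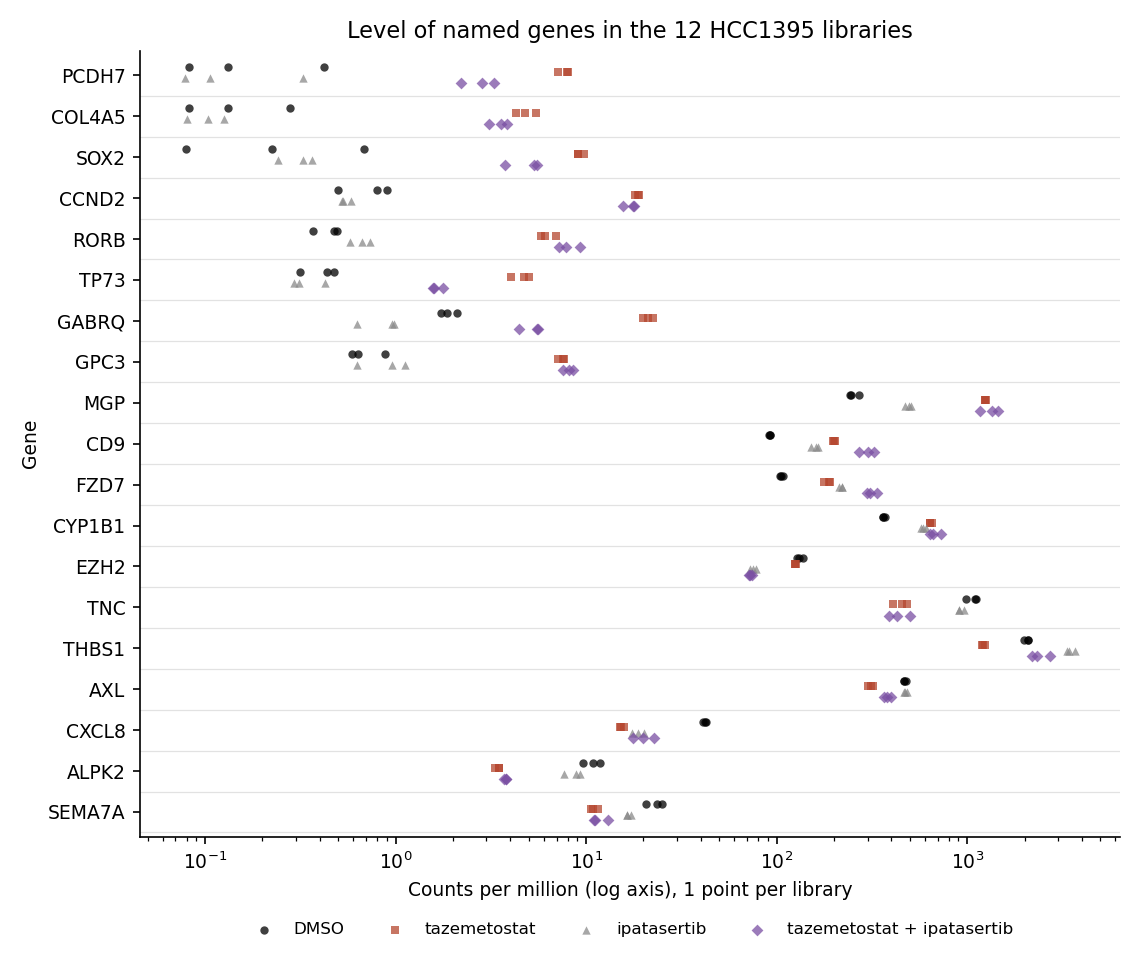
Level of 19 named genes in CPM on a log axis, 1 point for each of the 12 HCC1395 libraries, by treatment. PCDH7 lies under 0.5 CPM in DMSO and over 7 under tazemetostat, MGP moves from about 252 to 1244 CPM, EZH2 hardly moves, and TNC and CXCL8 lie lower under tazemetostat than in DMSO.

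Developmental transcription factor genes were more often higher than lower in each family counted. For these lists and those below, the shares over all genes tested were 18.8% higher and 14.9% lower. Among genes that passed in the ipatasertib libraries they were 17.8% and 16.9%. Of 39 HOX genes in the files, which pattern the body axis, 27 passed the filter, 18 rose and none fell. Of the 21 that passed in the ipatasertib libraries 12 rose: 5 of 10 HOXA, 2 of 2 HOXB and 5 of 9 HOXC genes, with no HOXD gene among them. The clusters differed in how much was measured: all 11 HOXA genes and 9 HOXC genes were tested, against 4 of 10 HOXB and 3 of 9 HOXD genes. HOXD8 had 0.238, 0.253 and 0.110 CPM in DMSO and 2.00, 1.68 and 1.72 under tazemetostat, a log2 change of 3.15 ± 0.30. HOXA13 rose by 3.40 ± 0.32, and HOXB7, already at 3.98 to 4.88 CPM in DMSO, by 1.36 ± 0.11. HOXC12 rose by 1.22 ± 0.10. The 9 genes not called lay in HOXA and HOXC.

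**Figure D3:**
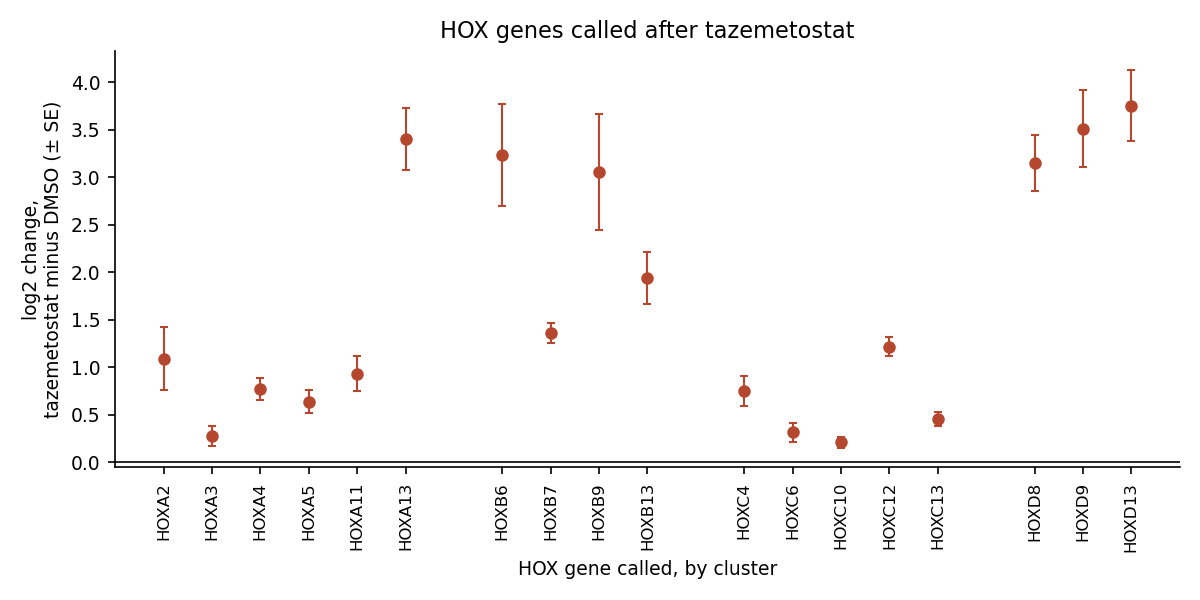
Log2 change of the 18 HOX genes called under tazemetostat against DMSO with its standard error (3 libraries a group), by cluster and gene number. All 4 HOXB and all 3 HOXD genes tested were called, but all 3 HOXD genes, 2 of the HOXB genes and 1 HOXA gene passed the filter only through other libraries than those with ipatasertib alone and had to be high to be tested.

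Of 141 other homeobox and bHLH factor genes, which direct organ and cell fates, 88 passed, 55 rose and 2 fell. Where the level in the ipatasertib libraries passed, 41 of 68 rose and 2 fell, with a median log2 change of 0.48 against -0.01 for all such genes. MSX1, a limb and craniofacial factor, had 1.72, 1.18 and 1.45 CPM in DMSO and 8.19, 7.49 and 7.40 under tazemetostat (2.40 ± 0.15). DLX3, a factor of epidermis and bone, rose by 1.77 ± 0.13 and the bHLH gene ATOH8 by 1.0 ± 0.06. SOX genes were higher in 8 of 12 cases and lower in none, among them SOX11 (3.03 ± 0.32), SOX8 (1.95 ± 0.31) and, from 44.6 to 51.3 CPM in DMSO, SOX4 (0.24 ± 0.06). Developmental FOX genes were higher in 11 of 16 cases and lower in 1. FOXC1, a mesodermal factor also high in basal-like breast cancer, had 48.3, 52.7 and 53.6 CPM and then 104, 108 and 106, a log2 change of 1.04 ± 0.06 without overlap. FOXQ1 rose by 2.39 ± 0.17, FOXP2 by 1.96 ± 0.17 and FOXF1 by 1.67 ± 0.15. Of 4 GATA genes tested 3 rose, GATA4 from 0 counts, GATA2 by 1.11 ± 0.11 and GATA6 by 0.57 ± 0.07. Counted only where the level passed in the ipatasertib libraries, 6 of 10 SOX, 9 of 13 FOX and 2 of 3 GATA genes rose, and 1 FOX gene fell. GATA3, the luminal breast factor, was at 2.37 CPM in DMSO and 2.59 under tazemetostat (0.12 ± 0.18, adjusted p = 0.644).

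Genes of signalling pathways were called in both directions, where 18.8% of all genes tested were higher and 14.9% lower. In the WNT family 19 of 36 ligand, receptor and antagonist genes rose and 7 fell. Among the 31 that passed in the ipatasertib libraries, 14 rose and 7 fell. WNT7B had 8.71, 9.12 and 9.54 CPM in DMSO and 33.7, 34.2 and 34.2 under tazemetostat, with no overlap (1.90 ± 0.07, adjusted p = 1.3e-13). WNT6 rose by 2.05 ± 0.13, the R-spondin receptor LGR6 by 1.59 ± 0.07 and the secreted antagonist SFRP1 by 1.38 ± 0.06. FZD7, a frizzled receptor, was high in DMSO at 107, 104 and 105 CPM and reached 191, 178 and 188. Of 10 genes that WNT signalling is known to induce, 9 rose and none fell. These included the WNT deacylase NOTUM (1.53 ± 0.13), the dishevelled antagonist NKD2 (0.90 ± 0.07) and the nuclear effector LEF1 (0.85 ± 0.08). The median of this list was 0.78 against 0.02 over all genes tested. In the subset that passed in the ipatasertib libraries it was 0.66 over 8 genes, 7 of them higher.

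Hedgehog genes were higher in 6 of 12 cases and lower in 2, with a median log2 change of 0.63. Of the 9 that passed in the ipatasertib libraries 4 were higher and 2 lower, with a median of 0.08, and beside ipatasertib 3 of 12 were higher and 4 lower. SMO, the signal-transducing receptor, rose from 14.8, 13.9 and 14.2 CPM to 41.4, 36.7 and 39.0 (1.44 ± 0.07). The pathway's usual target genes GLI1 and PTCH1 rose by 0.84 ± 0.11 and 0.66 ± 0.09, and the ligand SHH, under 0.2 CPM in each DMSO library, by 2.52 ± 0.45. In the BMP, activin and TGF-beta list 14 of 29 genes rose and 5 fell, or 3 without DMSO replicate C. Among the 23 that passed in the ipatasertib libraries, 10 rose and 5 fell. BMP7 had 1.37, 1.32 and 0.905 CPM and then 9.03, 8.80 and 8.76 (2.88 ± 0.15), and the activin subunit INHBB rose by 2.26 ± 0.12. GREM1, a BMP antagonist, rose from 38.3 to 39.6 CPM in DMSO to between 100.6 and 101.3 CPM under tazemetostat. Ligands and antagonists thus rose in the same list. ID3, a usual BMP target among the abundant genes, had 112, 120 and 125 CPM in DMSO and 204, 202 and 193 under tazemetostat.

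FGF ligands and receptors were higher in 10 of 14 cases and lower in 2 (none without DMSO replicate B). Among the 10 that passed in the ipatasertib libraries, 6 were higher and 2 lower. FGFR1 rose from 45.1 to 46.8 CPM in DMSO to between 82.9 and 86.0, FGF9 by 2.78 ± 0.30 and the intracellular FGF13 by 1.96 ± 0.21. NOTCH genes were higher in 7 of 20 cases (4 without tazemetostat replicate A) and lower in 2. Among the 18 that passed in the ipatasertib libraries, 5 were higher and 2 lower, against 17.8% and 16.9% of all such genes. With so few genes this is near the shares at large. The ligands went opposite ways, DLL1 rising by 1.57 ± 0.17 and JAG1 falling by 0.38 ± 0.06. Other receptor tyrosine kinase genes were split as well, with 11 of 28 higher and 8 lower, and 7 higher and 8 lower of the 20 that passed in the ipatasertib libraries. Without DMSO replicate B 5 of the 28 were lower. NTRK2, the receptor of BDNF, had 60.1, 65.1 and 59.6 CPM and then 159, 155 and 162, and PDGFRA rose by 2.07 ± 0.11. AXL, a receptor of mesenchymal-like tumour cells, fell from 463, 467 and 478 CPM to 319, 313 and 302 (-0.59 ± 0.05), with no overlap.

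Axon guidance and synaptic genes were also more often higher than lower. Of 84 neuronal and synaptic genes 57 passed, 35 rose and 2 fell, and 20 of 38 rose among those passing in the ipatasertib libraries. CNTNAP2, a neurexin family adhesion gene, had 9.98, 9.01 and 10.2 CPM in DMSO and 43.0, 47.0 and 44.6 under tazemetostat (2.20 ± 0.08). The glutamate receptor gene GRIK2 rose by 2.78 ± 0.13 and CHGA, a secretory granule protein, by 1.87 ± 0.09. Ephrins and Eph receptors were higher in 10 of 17 cases and lower in 1, or 9 and 1 of the 15 that passed in the ipatasertib libraries. EPHB6, a kinase-dead Eph receptor, had 1.80, 1.91 and 1.18 CPM and then 14.5, 16.2 and 16.3 (3.27 ± 0.15), and the ligand EFNA5 rose by 2.11 ± 0.10. Among semaphorins, plexins and netrins 19 of 42 rose and 5 fell, or 16 and 5 of the 38 that passed in the ipatasertib libraries. SEMA5B rose by 3.60 ± 0.27, the netrin receptor UNC5B by 1.17 ± 0.10 and PLXND1 by 1.05 ± 0.07. SEMA7A, a membrane-anchored semaphorin, went the other way. It had 20.6, 23.5 and 24.9 CPM and then 10.8, 10.6 and 11.5, a fall of 1.07 ± 0.09.

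Protocadherins did not move as a block. Solitary members were higher in 4 of 6 cases and lower in 1, with PCDH19 rising by 1.15 ± 0.15 beside PCDH7. Among the 5 that passed in the ipatasertib libraries, 3 were higher and 1 lower. The clustered genes had 4 higher and 4 lower of 41. Their alpha and gamma members share exons within a cluster, so that counts of those members are uncertain. Without tazemetostat replicate C 1 was higher, and without DMSO replicate A or tazemetostat replicate B 1 was lower. By cluster, 3 of 8 alpha, 1 of 13 beta and none of 20 gamma genes rose, and all 4 that fell were gamma genes. PCDHAC2 rose by 1.84 ± 0.47 from under 0.2 CPM, and PCDHGC5 fell from 13.1, 14.9 and 14.4 CPM to 6.68, 6.23 and 6.67.

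Matrix genes changed in both directions, where 18.8% of all genes tested were higher and 14.9% lower. MGP, an inhibitor of calcification that binds BMP ligands, had 270.1, 244.3 and 243.1 CPM in DMSO and 1252, 1234 and 1247 under tazemetostat. The groups were far apart (2.30 ± 0.07, adjusted p = 1.7e-15). TNC, the matrix glycoprotein tenascin C, fell from 1107, 1098 and 991 CPM to 409, 457 and 483 (-1.24 ± 0.08). THBS1, thrombospondin 1, fell from between 1985 and 2092 CPM to between 1194 and 1239 (-0.76 ± 0.06). LAMC1, the shared gamma chain of most laminins, had 1065, 1122 and 1008 CPM and then 681, 708 and 717. TNC, THBS1 and LAMC1 have over 8 kb of exons, the class in which DMSO replicate C ran low. They were chosen among genes without overlap between the groups. A fall against that library was thus required and is no check on its low values. The collagen cross-linking enzyme gene LOXL2 fell by 0.59 ± 0.05. Of 37 collagen chain genes 16 rose and 6 fell, and of the 31 that passed in the ipatasertib libraries 13 rose and 6 fell. COL9A3, a cartilage collagen chain, rose by 2.33 ± 0.17 and COL1A1 by 0.58 ± 0.06, while the abundant COL8A1 fell from 372, 401 and 405 CPM to 260, 266 and 271.

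Among integrins, the cell's matrix receptors, 9 of 25 rose and 8 fell. ITGB4, the hemidesmosome integrin, rose from 28.9, 31.7 and 32.1 CPM to 58.7, 57.9 and 62.2, and ITGA4 by 2.29 ± 0.18. ITGA5, the fibronectin receptor subunit, fell from 193, 196 and 202 CPM to 129, 129 and 130 (-0.60 ± 0.04). Laminins had 3 of 12 higher and 4 lower, LAMA1 rising by 2.04 ± 0.24 and LAMB3 falling by 0.56 ± 0.05. Matrix proteases and their inhibitors had 4 of 18 higher and 3 lower, shares near those of all genes (18.8% and 14.9%). The collagenase MMP13 rose by 2.99 ± 0.19, the gelatinase MMP2 by 0.48 ± 0.04 and the inhibitor TIMP3 by 0.41 ± 0.05, and the membrane protease MMP14 fell by 0.33 ± 0.05. Other abundant genes that fell included PTPRF, a receptor phosphatase (-0.73 ± 0.06), and ACTN1, an actin cross-linker (-0.62 ± 0.05). FAT1, a giant cadherin gene, had 604, 615 and 454 CPM and then 336, 367 and 389 (-0.62 ± 0.19, adjusted p = 0.036). Its call was lost in 5 of the 6 fits without a library, with adjusted p up to 0.108.

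Epithelial junction genes were more often higher, and mesenchymal transition genes more often lower. Over all genes tested 18.8% were higher and 14.9% lower. Desmosome genes were higher in 9 of 13 cases and lower in none. DSP, the desmosome's plakin linker, had 2.98, 4.80 and 3.46 CPM in DMSO and 29.9, 31.9 and 34.6 under tazemetostat, a log2 change of 3.11 ± 0.19 without overlap. DSC3, a desmosomal cadherin, rose from 49.3, 51.2 and 45.2 CPM to 93.4, 97.0 and 94.7, and PKP2 by 1.17 ± 0.11. Tight junction genes were higher in 12 of 25 cases and lower in none, with F11R rising by 0.66 ± 0.06 and CLDN23 by 0.71 ± 0.09. Among the 18 that passed in the ipatasertib libraries, 10 were higher. Keratins had 10 of 19 higher and 3 lower, or 9 and 3 of the 17 that passed in the ipatasertib libraries. KRT6B rose from 67.1, 68.1 and 72.8 CPM to 183, 183 and 190, the basal KRT5 by 1.08 ± 0.10 and the simple epithelial KRT18 by 0.72 ± 0.07, and KRT80 fell by 0.66 ± 0.05. EPCAM, an epithelial adhesion gene, was at 1.35 to 2.36 CPM in DMSO and 4.33 to 5.31 under tazemetostat. CDH1, the epithelial cadherin, stayed near silence at 0.397 CPM.

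Epithelial transcription factors had 7 of 15 higher and 3 lower, with ELF3 (1.96 ± 0.22) and OVOL2 (0.97 ± 0.11) among those higher. Among the 12 that passed in the ipatasertib libraries, 5 were higher and 3 lower. Their median log2 change was 0.19, against 0.59 over all 15. Of 14 mesenchymal transition genes 3 rose and 9 fell, a median of -0.29. Part of this list is abundant (2623 CPM in sum in DMSO), and 37.1% of all genes over 64 CPM were lower. CDH2, the neural cadherin, fell from 343, 343 and 345 CPM to 265, 260 and 271, PRRX1 by 0.68 ± 0.07 and VIM by 0.25 ± 0.06. SNAI2 and TCF4, both drivers of mesenchymal transition, went the other way (0.42 ± 0.06 and 0.65 ± 0.08).

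Immune genes were counted by class. Antigen presentation by MHC class II, which helper T cells read, had 8 of 10 genes higher and none lower. Of the 6 that passed in the ipatasertib libraries 4 rose. HLA-DRA had 1.48, 1.35 and 1.89 CPM and then 6.39, 6.08 and 6.59 (2.01 ± 0.16), CD74, the invariant chain, rose by 1.83 ± 0.13 and HLA-DPA1 by 3.63 ± 0.31. HLA-DMA, a peptide exchange factor, rose by 0.66 ± 0.10. CIITA, the main transactivator of these genes, looked up after its values were seen, had 1.80, 1.82 and 1.43 CPM in DMSO and 1.80, 1.22 and 1.53 under tazemetostat. Its groups overlapped (-0.16 ± 0.19, adjusted p = 0.557). MHC class I genes had 4 of 18 higher and 8 lower, but only 4 lower without DMSO replicate B, DMSO replicate C, tazemetostat replicate B or tazemetostat replicate C, and 5 without DMSO replicate A. HLA-B rose by 0.43 ± 0.06 and HLA-F by 0.70 ± 0.10, while TAPBP, which loads peptide, fell by 0.25 ± 0.05. Reads of the class I genes may be exchanged between near-identical copies.

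Of 31 interferon-stimulated effector genes 20 rose and none fell, 20 of 30 in the subset that passed in the ipatasertib libraries. MX1, an antiviral GTPase, had 22.4, 19.8 and 17.8 CPM and then 48.5, 42.1 and 50.1, HERC5 rose by 1.34 ± 0.08, TRIM22 by 1.38 ± 0.16 and IFIT1 by 1.09 ± 0.11. The genes that sense nucleic acids and carry the interferon signal had 4 of 22 higher and 5 lower, shares near those of all genes, and 3 lower without DMSO replicate B or C. Among them the RNA sensor IFIH1 rose by 0.54 ± 0.07.

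Of 23 NF-kB feedback genes 13 were lower and 1 higher. Without tazemetostat replicate B 8 were lower. In the main comparison 13 of 20 were lower where the level passed in the ipatasertib libraries. BIRC3, an inhibitor of apoptosis, had 12.7, 12.4 and 11.1 CPM and then 6.42, 6.23 and 6.67 (-0.91 ± 0.11). TRAF1 fell by 0.98 ± 0.12, the NF-kB subunit RELB by 0.47 ± 0.07 and TNIP1 by 0.36 ± 0.05. CXCL8, the neutrophil chemokine whose promoter with GGAATTTCC is shown above, had 40.9, 42.5 and 42.0 CPM in DMSO and 15, 15.7 and 15.2 under tazemetostat. The groups were well apart (-1.45 ± 0.08, adjusted p = 1.5e-11). Of 14 chemokine genes it was the only member that fell, and 3 rose, among them CXCL16 from 6.65, 6.85 and 7.51 CPM to 19.9, 17.3 and 18.7. Among the 10 chemokine genes that passed in the ipatasertib libraries, 2 rose and 1 fell. IL32, an inflammatory cytokine gene, fell from 26.3, 21.8 and 26.8 CPM to 10.9, 9.80 and 9.45.

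**Figure D4:**
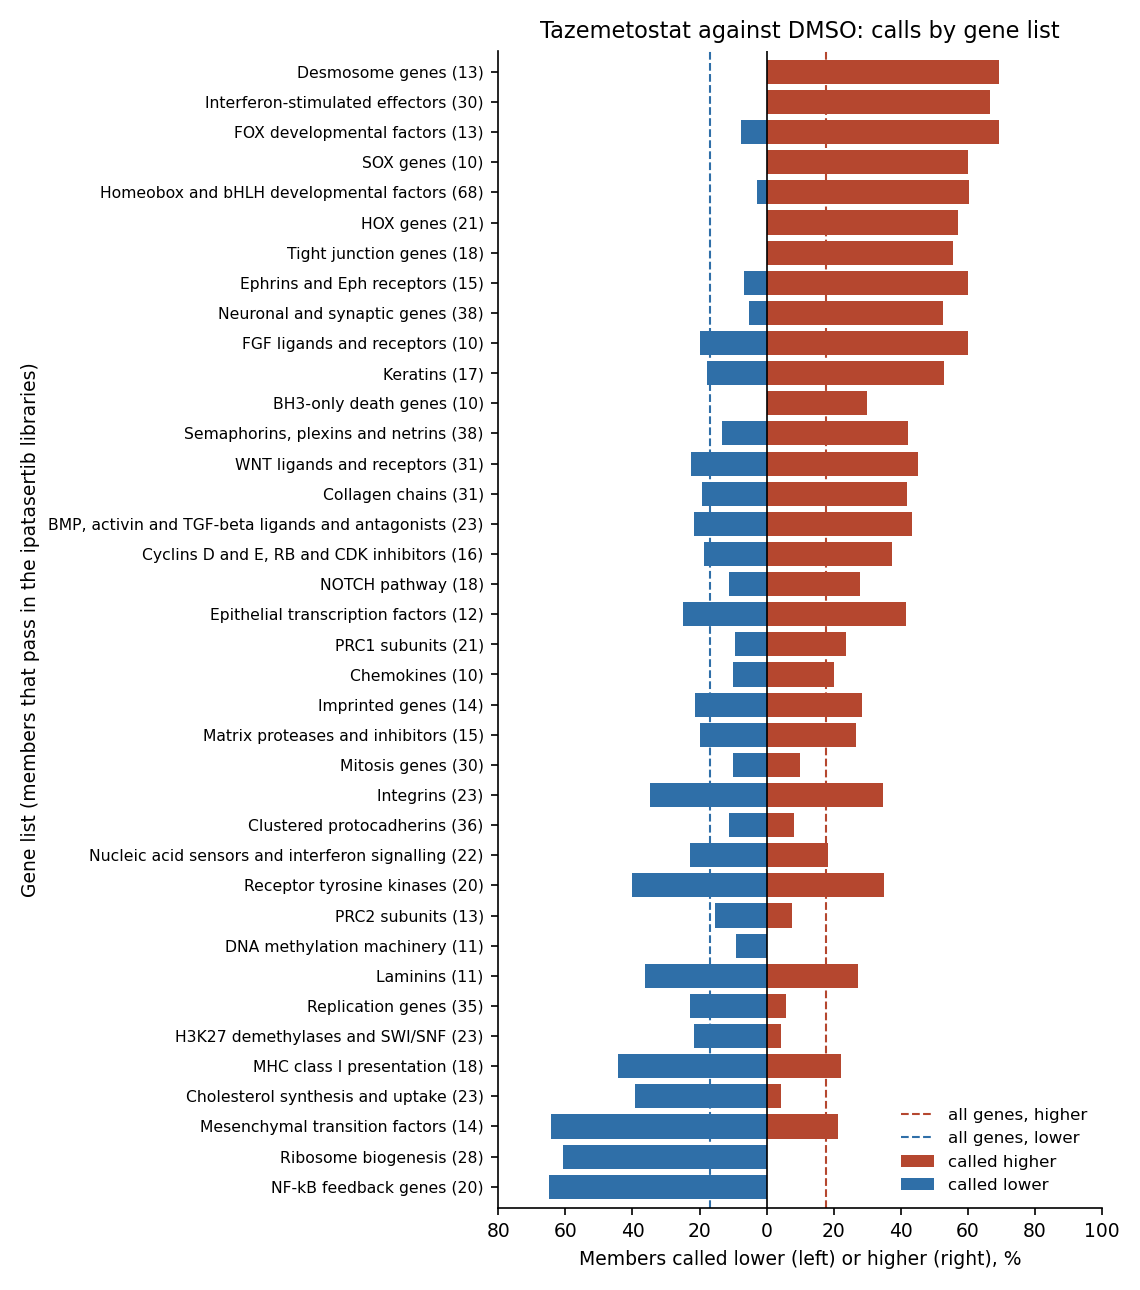
For each gene list with at least 10 members that pass in the ipatasertib libraries (their number in brackets), the % of members called higher (right, red) or lower (left, blue) under tazemetostat; dashed lines give the same over all such genes, 17.8% and 16.9%. Desmosome, interferon-stimulated and developmental factor lists lie on the right, and NF-kB feedback and ribosome biogenesis lists on the left.

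Genes of cell growth and death were called in both directions. CDKN1A, the CDK inhibitor p21, rose from 19.2, 19.3 and 20.1 CPM to 39.4, 41.3 and 42.3, CDKN1C, an imprinted CDK inhibitor, by 2.04 ± 0.19 and CDKN2D by 0.46 ± 0.08. In their list of cyclins and CDK inhibitors 6 of 16 rose, CCND2 among them, and 3 fell. Replication genes had 2 of 35 higher and 8 lower, and mitosis genes 3 of 30 higher and 3 lower. Over all genes tested 18.8% were higher and 14.9% lower, so mitosis genes were called less often than genes at large in each direction. Neither list was stable when a library was left out: replication genes then had 4 lower without tazemetostat replicate B or C, 5 without DMSO replicate A or C, and none higher in 3 of the 6 fits. Mitosis genes had none higher without tazemetostat replicate A and none lower without DMSO replicate B, and 1 in each direction without tazemetostat replicate B. KIF20A, a mitotic kinesin, rose by 0.18 ± 0.05, a call lost without tazemetostat replicate A (adjusted p = 0.0866). MKI67, a proliferation marker, ranged over 354 to 522 CPM in DMSO and 341 to 467 under tazemetostat and the groups overlapped (adjusted p = 0.596). Of 10 BH3-only death genes 3 rose and none fell: BMF from 11.6, 11 and 10.7 CPM to 47.9, 46.2 and 46.7, BIK by 1.22 ± 0.27 and HRK by 1.5 ± 0.42. HRK was not called without DMSO replicate C (adjusted p = 0.0525) or without tazemetostat replicate C (adjusted p = 0.0638). Among their partners BOK rose by 1.51 ± 0.25, and MCL1, which holds BH3-only proteins in check, fell from 230 to 239 CPM in DMSO to between 199 and 202.

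Of 28 ribosome biogenesis genes 17 were lower and none higher, at a median log2 change of -0.18. The share lower was 14.9% over all genes tested and 37.1% of genes over 64 CPM. This list is abundant as a set (4268 CPM in sum in DMSO). Beside ipatasertib 11 of its genes were lower and 1 higher, with a median of -0.10. POLR1A, the largest RNA polymerase I subunit, fell from 159, 169 and 152 CPM to 113, 122 and 116, the helicase gene DDX21 by 0.49 ± 0.07, NOLC1 by 0.44 ± 0.06 and RRP12 by 0.33 ± 0.05. Cholesterol genes had 9 of 23 lower and 1 higher, with HMGCS1, an early enzyme of the pathway, falling by 0.34 ± 0.06. These genes are abundant as a set (4720 CPM in sum in DMSO), and 37.1% of all genes over 64 CPM were lower. Beside ipatasertib 3 of the 23 were higher and 1 lower, with a median log2 change of 0.01. ALDH1A3, a retinoic acid synthesising enzyme used as a stem-like marker in breast cancer, rose from 41.7, 44.1 and 41.2 CPM to 95.1, 95.9 and 98.3, and DHRS3, which reduces retinal, rose from 112 to 116 CPM in DMSO to between 210 and 216. Other abundant rises were the tetraspanin gene CD9 (1.13 ± 0.06), the hydrolase gene CMBL (0.91 ± 0.05), CYP1B1, an oxidase of oestrogens and retinoids (0.82 ± 0.05), S100A10 (0.61 ± 0.08) and the elongation factor gene EEF1A2 (0.59 ± 0.06). Of 100 cancer-testis genes only 5 passed the filter, and 2 rose, TEX15 by 0.55 ± 0.11.

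The largest falls above a mean of 2 CPM were smaller than the largest rises. ALPK2, an alpha-kinase gene, had 11.8, 10.9 and 9.60 CPM and then 3.49, 3.49 and 3.35, a log2 change of -1.65 ± 0.11. PTPN22, a phosphatase of immune signalling, fell by 1.19 ± 0.12 and the carboxypeptidase gene CPA4 by 1.05 ± 0.06. In these 3 genes no treated library reached a control. Among long non-coding RNA genes LINC01133 rose by 1.04 ± 0.13 and GATA2-AS1, antisense to GATA2 and not separable from it without strand, by 1.71 ± 0.18, and LINC00641 fell by 0.88 ± 0.13.

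Cultures of a line can be checked for other cells. In bulk RNA, fewer cells of a type and less RNA per cell cannot be told apart. Of 12 leukocyte markers 3 passed, with a summed level of 1.54 to 1.98 CPM in DMSO and 1.53 to 1.66 under tazemetostat, and PTPRC, the pan-leukocyte gene, was at or under 0.59 CPM in each of the 6 libraries. Of 8 endothelial markers 6 passed at 2.98 to 3.99 CPM in sum in DMSO and 4.26 to 5.03 under tazemetostat. Of 10 fibroblast markers, many of which mesenchymal tumour cells also express, 7 passed at 775 to 800 and 817 to 840 CPM. The part of any such cells in the class II or matrix changes was not tested.

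The same inhibitor was also given beside ipatasertib, in libraries that share none with the comparison above. The 3 libraries with both agents stood apart from each other: chi-square per gene between pairs of them was 11.1 to 35.3, against 3.83 to 6.55 between pairs within the other 3 groups. There 3067 genes were higher (17%) and 3358 lower (18.6%) than with ipatasertib alone, 1173 (6.49%) and 66 (0.365%) of them by at least 2-fold. Of the 1337 genes that rose at least 2-fold without ipatasertib, 1316 (98.4%) had the same sign with it, 1116 (83.5%) were called in the same direction and none in the opposite one. Their median log2 change was 1.44 with ipatasertib and 1.68 without, where the choice by size without ipatasertib favours the larger median there. Of the 67 genes that fell at least 2-fold, 57 had the same sign and 25 were called lower. Over the 13840 genes compared, Pearson's r between both sets of log2 changes was 0.88, given as a description since genes are not independent. CCND2 rose by 4.96 with ipatasertib, COL4A5 by 5.03, DSP by 3.22, RORB by 3.61 and TNC fell by 1.07. HOX genes were higher in 14 of 27 cases and lower in none, and MHC class II genes in 8 of 10.

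The difference between the tazemetostat effects was tested gene by gene and called for 286 genes (1.58%), 95 with a positive difference (0.526%) and 191 with a negative one (1.06%). Differences of at least 2-fold numbered 4 (0.0221%) and 16 (0.0885%). Of the genes that rose without ipatasertib 146 had a lower log2 change with it, in some cases at or under 0, and 11 a higher one. Of those that fell 60 had a higher log2 change with it, in some cases above 0, and 7 a lower one. Both sets were chosen by their call without ipatasertib, an effect that the difference subtracts. That choice favours smaller changes with ipatasertib, so these counts cannot show whether it dampens the response. CXCL8 had 17.4, 20.2 and 18.8 CPM with ipatasertib and 20, 22.7 and 17.6 with both agents, so the groups overlapped and its difference was 1.55 ± 0.11 (adjusted p = 9.6e-08). Of the 23 NF-kB feedback genes 6 had a called difference, among them RELB (0.62, adjusted p = 0.00128), BIRC3 (0.71, adjusted p = 0.0145) and TRAF1 (0.75, adjusted p = 0.0282). GREM1 rose by 0.61 with ipatasertib, LGR6 by 0.74 and BMF by 0.63, less than without it by 0.76, 0.85 and 1.45. COL1A1 had a log2 difference of -0.15 with ipatasertib, and the difference from its rise without it was -0.74. The number of such genes depended on the libraries: it was 1022 without replicate C of both agents, 630 without replicate B of both agents and 127 without tazemetostat replicate B.

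**Figure D5:**
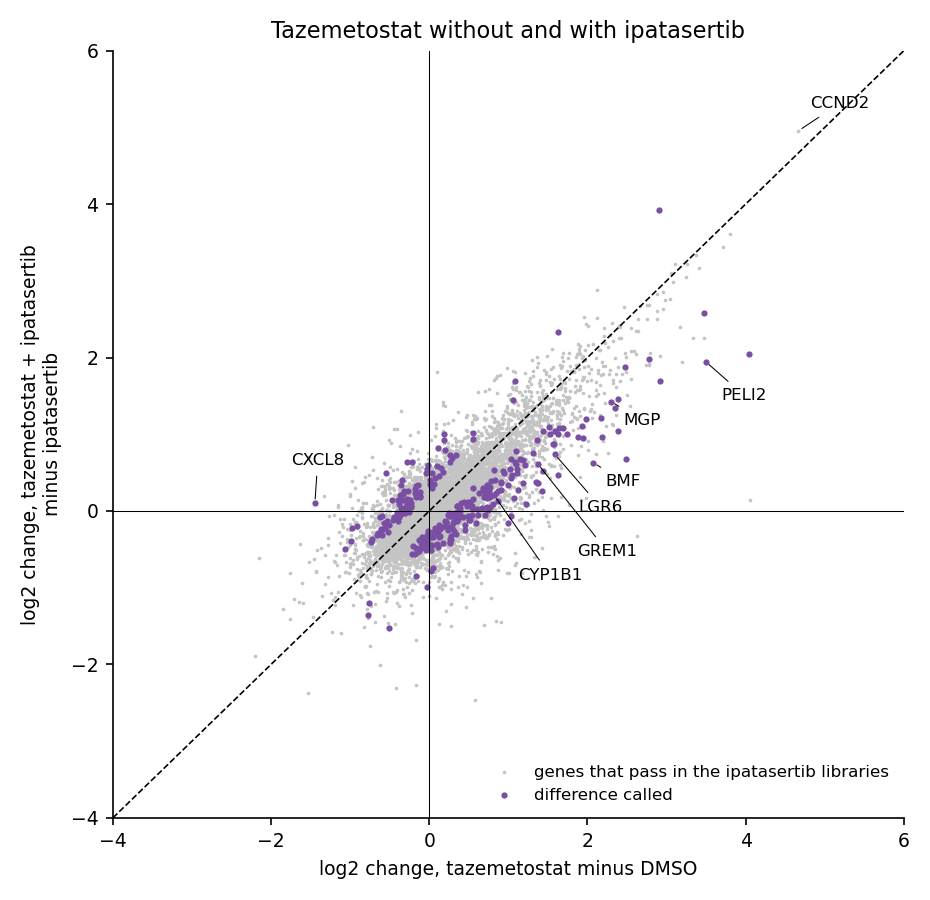
Log2 change under tazemetostat without ipatasertib (x) and with it (y), 1 point per gene that passes in the ipatasertib libraries; the dashed line marks equal change and purple points are genes whose difference was called. CCND2 lies at 4.67 and 4.96, and CXCL8 lies at -1.45 and 0.10.

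Set directly against ipatasertib, tazemetostat alone left 5162 genes higher (28.6%) and 4880 lower (27%), 1570 (8.69%) and 659 (3.65%) of them by at least 2-fold. EZH2 was higher under tazemetostat than under ipatasertib by 0.74, at 124 to 127 against 72.1 to 77.5 CPM, and CNTNAP2 by 3.82. ITGB4 was lower by 1.87, at 57.9 to 62.2 against 210 to 226 CPM, although it rose under tazemetostat against DMSO. PCGF5 was at 35.4 to 36.9 CPM under tazemetostat and 35.6 to 38.0 under ipatasertib, with a difference of -0.02 that did not pass (adjusted p = 0.78).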

How the data were processed

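The values used are raw read counts per gene and library, as the authors deposited them for 24 libraries of 3 breast cancer lines. Reads were trimmed with fastp, aligned to hg38 with HISAT2 2.0.5 and analysed with DESeq2, per the submitters' processing notes. Which counter, annotation and strand setting were used is not given in the sources used here. A deposited normalised table was not used, and its 12 columns match no sample title. Each library lists 58735 entries by symbol; positions and gene types are from GENCODE 29.

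Counts of the 12 HCC1395 libraries in 4 groups were fitted with edgeR 4.0.16 (TMM scaling, filterByExpr at a minimum count of 10, robust quasi-likelihood test, 8 residual degrees of freedom, R 4.3.3, limma 3.58.1). All 4 groups share an estimate of spread. A gene was called at an adjusted p under 0.05 (Benjamini-Hochberg over 18074 genes). CPM were computed from the TMM-scaled library sizes. Data were also simulated for tazemetostat against DMSO (17640 genes), around means shared by all groups. Changes were set up or down at random in genes of at least 1 CPM. Of 73 genes changed 1.5-fold 76.7% were called, of 65 changed 2-fold 92.3% and of 62 changed 4-fold 100%, with 5 false calls. In the real data 6087 genes were called, large changes were nearly all rises and many lay under 1 CPM. The simulated rates therefore do not carry over to these data. Log2 changes carry a prior count of 0.125.

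The members and gene lists were chosen with earlier results of these data known. Named genes are drawn from protein-coding genes that were called, averaged 2 CPM or more and had no overlap between the groups (the 12 largest and 12 smallest changes, and the 10 most abundant each way at 1.5-fold or more), the 4 members of each of 52 lists with the smallest p, 5 long non-coding RNA genes each way and a panel of genes taken at any p. Some named genes are not reported here. Genes with 0 counts in DMSO were chosen by their counts. Alternatives were RLE scaling, other filters, DESeq2 1.42.0, a replicate block, a fit to the compared groups alone, and leaving out each library. Intervals on shares are 95% Wilson intervals, which take genes as independent. Figures were drawn with matplotlib 3.10.9.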

Additional observations from a re-analysis of the deposited data

Results flagged for a closer look

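Of 43 genes chosen by the size of their change or their abundance, 9 had a called difference, against 1.58% of all genes tested. In these the tazemetostat effect with ipatasertib differed from that without it, by the test of the difference itself in edgeR. All 43 were called without ipatasertib, an effect that the difference subtracts. The choice therefore favours called differences toward a smaller change. The log2 change was lower with ipatasertib for PELI2 (difference of log2 changes -1.56), GABRQ (-0.89), MGP (-0.88), CMBL (-0.64), CYP1B1 (-0.61) and FZD7 (-0.28). It was higher for AXL (0.28), SEMA7A (0.56) and CXCL8 (1.55), all of which fell without ipatasertib. The adjusted p-values ran from 9.6e-08 for CXCL8 to 0.047 for FZD7. MGP reached 1244 CPM on average under tazemetostat alone. The test uses the 3 libraries with both agents, which differed from each other more than those of any other group (chi-square per gene 11.1 to 35.3 between pairs, against 3.83 to 6.55).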

How the results depend on the processing

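The number of genes called at 2-fold or more was 877 (853 higher, 24 lower) when 1 CPM in 3 libraries was required, which tests fewer low genes. Over the other alternatives the count at 2-fold or more stayed within 1.5 times the reported 1404. The balance of all called genes was less firm. It was 3095 higher and 3511 lower with RLE scaling, 3018 and 3489 with DESeq2, 3271 and 3249 without a filter, and 2730 and 2882 without EZH2i replicate A. RLE scaling moved the median of all genes from 0.0154 to -0.0246. The total called ranged from 4938 to 5612 without a library. The number of genes with a called difference between the tazemetostat effects was 476 with DESeq2 and ranged from 127 to 1022 without a library. The cause was not tested. EZH1, never called, changed sign to 0.0086 under the 1 CPM filter and ranged from -0.0469 to 0.0342 (without DMSO replicate B) when a library was left out. Of 168 named genes, 9 lost their call under some alternative (SUZ12, EPOP, RBBP7, KDM6A, DNMT1, FAT1, HRK, KIF20A and PTPRC) and EZH2 gained it. The letters A, B and C do not pair the libraries: deviations of same-lettered libraries correlated at 0.0029, 0.0653 and 0.0336. With a replicate block 6009 genes were called (3371 higher, 2638 lower). Genes with few counts are the least precise.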
